A study of Homo sapiens with 91 samples.

Results

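The genes described here are those with well-counted introns and exons in single HEK293T cells: each had a mean of at least 20 random barcodes in its exons and at least 20 in its introns over 38 cells. A random barcode is a tag added to each cDNA molecule before amplification, so barcodes count molecules and not amplified copies. Of 57820 Ensembl gene identifiers, 1342 met the rule. A further 1835 reached the minimum in exons alone and 2360 in introns alone. The members were chosen on these mean counts, so how well they are counted is a property of the choice. Of the 1342 members, 1323 are protein coding in GENCODE release 29 and 11 had no match there.

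The libraries were made by MATQ-seq, which reverse-transcribes total RNA of a single cell from many priming positions and so also reads introns. All 48 libraries came from clone 1 of HEK293T, a line derived from human embryonic kidney cells that carries the SV40 large T antigen, grown in high-glucose DMEM with serum and antibiotics and given no other treatment in the labels. Of the libraries, 38 were single cells, and 10 were pool-and-split aliquots, in which material of pooled cells was divided to the amount of 1 cell. The remaining 43 of the 91 samples of the series were not analysed here. All values describe 1 clone, and nothing in the labels ties a cell to the aliquot of the same number.

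Intronic RNA is mostly unspliced pre-mRNA, which is made at the gene and lasts a short time, while exonic RNA is mostly spliced mRNA, which can last much longer. Transcription in human cells is known to come in bursts, so that a gene active shortly before lysis carries much pre-mRNA. Intron counts of a gene are for this reason used as a measure of recent transcription and exon counts as a measure of the standing mRNA pool. An unspliced RNA primed at several places can give barcodes to its introns and its exons alike, and its part in the values below was not tested.

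Genes of the cell cycle are described at length below, and the promoters of the 2 S-phase and the 2 mitotic members with the highest exon-intron correlation in cells are shown to give the motifs known for such genes. The sequences are from RefSeq on GRCh38.p14 and run 5′ to 3′ from 250 bases before the start of transcription to 50 after it, in lower case. Capitals mark, in the 150 bases before the start and on either strand, CCAAT (the NF-Y box), TTTGAA or TTTAAA (the cell cycle homology region, CHR, of mitotic genes), and TTTCCCGC, TTTCGCGC, TTTGCCGC or TTTGGCGC (E2F sites of S-phase genes). No match of one motif overlaps another in these sequences.
HELLS, chr10:94545538-94545837, plus strand: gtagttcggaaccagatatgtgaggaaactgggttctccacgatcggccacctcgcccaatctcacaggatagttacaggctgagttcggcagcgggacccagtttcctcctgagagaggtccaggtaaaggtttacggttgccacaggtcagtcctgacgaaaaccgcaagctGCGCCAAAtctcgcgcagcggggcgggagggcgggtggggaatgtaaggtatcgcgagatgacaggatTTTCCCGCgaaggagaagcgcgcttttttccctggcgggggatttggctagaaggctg
BRIP1, chr17:61863479-61863778, minus strand: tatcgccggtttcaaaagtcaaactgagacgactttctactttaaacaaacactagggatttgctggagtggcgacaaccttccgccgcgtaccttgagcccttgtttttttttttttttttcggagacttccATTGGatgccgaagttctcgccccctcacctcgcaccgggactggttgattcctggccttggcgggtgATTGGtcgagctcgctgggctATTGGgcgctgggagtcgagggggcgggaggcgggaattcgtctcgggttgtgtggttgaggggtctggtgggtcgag
KIF18B, chr17:44947724-44948023, minus strand: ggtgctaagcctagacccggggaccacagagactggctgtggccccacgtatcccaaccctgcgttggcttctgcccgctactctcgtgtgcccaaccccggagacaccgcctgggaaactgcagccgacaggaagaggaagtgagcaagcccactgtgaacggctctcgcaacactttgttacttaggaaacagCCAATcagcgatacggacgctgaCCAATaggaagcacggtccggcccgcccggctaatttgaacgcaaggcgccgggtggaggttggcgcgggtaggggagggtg
ASPM, chr1:197146620-197146919, minus strand: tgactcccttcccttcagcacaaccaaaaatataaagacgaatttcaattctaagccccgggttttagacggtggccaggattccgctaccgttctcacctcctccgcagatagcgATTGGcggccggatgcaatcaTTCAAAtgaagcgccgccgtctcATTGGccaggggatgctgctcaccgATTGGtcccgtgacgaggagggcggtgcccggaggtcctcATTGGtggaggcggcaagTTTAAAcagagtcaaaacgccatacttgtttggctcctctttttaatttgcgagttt

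In this window the HELLS promoter held 2 E2F matches, BRIP1 held 3 CCAAT boxes on the reverse strand, and KIF18B held 2 CCAAT boxes. ASPM held 4 CCAAT boxes and 2 CHR matches. Matches outside the window, such as TTTGAA just after the start in KIF18B, were not marked or counted. Of 35116 promoters in the table, 23.5% held CCAAT, 12.6% a CHR and 1.80% an E2F match in the same window. Over 1750 promoters of members the shares were 24.2%, 8.17% and 3.54%. Among 12 promoters of 11 S-phase members in the table, 7 held CCAAT, 5 an E2F match and 0 a CHR. Among 10 promoters of 10 mitotic members, 6 held CCAAT, 6 a CHR and 0 an E2F match. A match is a run of letters and not a measured binding site.

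A cell held 231131 ± 51823 exonic barcodes (SD, n = 38) and an aliquot 188547 ± 41723 (SD, n = 10). Intronic barcodes numbered 266667 ± 80507 per cell and 256162 ± 52026 per aliquot. Introns took 32.7% to 66.8% of the barcodes of a cell and 54.9% to 60.4% of those of an aliquot, so the balance of introns to exons varied far more between cells. Levels are in CPM, the barcodes of a gene per 1000000 barcodes of its layer. The 6 matched markers of HEK293T cells summed to 441 to 1837 exonic CPM in cells and 1233 to 1654 in aliquots, led by IRS4. Markers of mammary epithelium, blood and fibroblasts summed to 4.49, 2.37 and 17.5 CPM on average in cells, and KRT6A and KRT17 were at 0 in all 48 libraries. Members held 29.7% ± 0.899 of exonic and 25.4% ± 2.60 of intronic barcodes in cells, and 29.9% ± 0.623 and 26.9% ± 0.809 in aliquots. Exonic and intronic CPM were scaled separately, each by its own library total and TMM factor.

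Exons and introns of the same gene followed each other weakly from cell to cell. The Pearson correlation (r) of exonic with intronic log2 CPM over the 38 cells had a median of 0.22 over members, with 0.09 and 0.35 as quartiles. It was above 0 for 1150 members (85.7%) and at least 0.5 for 102 (7.60%). Over the 10 aliquots the median was 0.13, and r was above 0 for 876 members (65.3%) and at least 0.5 for 190 (14.2%). Over all 5800 genes with a mean of at least 5 barcodes in each layer, the medians were 0.19 in cells and 0.16 in aliquots. Of those genes, 83.6% were above 0 in cells and 5.55% at 0.5 or more, and in aliquots 65.9% and 15.6%, so the shares of members were near those of all genes. Each r is given as a description, because its points share library depth and each library's introns-to-exons balance, and r over 10 libraries scatters more than r over 38.

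Exons of a member followed its own introns more closely than those of other members. Exons of a member and introns of the other members had a median r of 0.004 in cells and 0.0004 in aliquots. A member's own introns ranked among the top 1% of all members' introns for 214 members (15.9%) in cells and 40 (2.98%) in aliquots. In cells 1 to 10 alone, which match the aliquots in number, the count was 82 (6.11%) and the median r was 0.24. For 54 members the own introns ranked first of all 1342 in cells, and for 4 in aliquots.

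**Figure D1:**
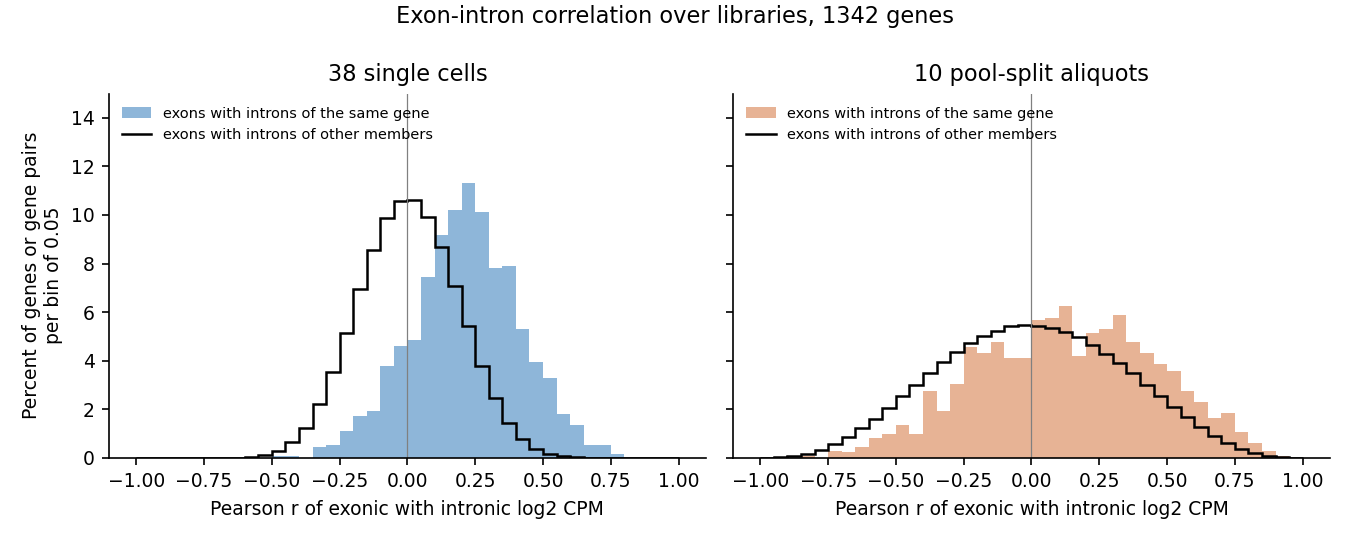
Distribution of Pearson r of exonic with intronic log2 CPM over 38 cells (left) and 10 aliquots (right), as percent per bin of 0.05. Filled steps are the 1342 genes with their own introns (medians 0.22 and 0.13), and black lines are exons with introns of other members (medians 0.004 and 0.0004).

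The scaling of the layers decided the sign of these values. With 1 factor for both layers, which keeps the introns-to-exons balance of each library in the data, the median r of members fell to -0.083 in cells and stood at 0.12 in aliquots. Exons with introns of other members then had a median r of -0.24 in cells and -0.013 in aliquots. The own introns still stood above those of other members, by 0.16 in cells and 0.13 in aliquots on the scale of r, against 0.22 and 0.13 with separate scaling. The number of members in the top 1% was then 114 (8.49%) in cells and 37 (2.76%) in aliquots.

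With separate scaling of the layers, cells left the range of the aliquots in both layers together more often than in opposite directions. These counts were not taken again with 1 factor for both layers. Of 50996 pairs of a member and a cell, exonic CPM lay above all 10 aliquots in 11.3%, and intronic CPM in 8.81%. Where exons lay above, introns lay above as well in 17.5% and below all aliquots in 8.31%. Where exons lay below all aliquots, introns did so too in 21.7% and lay above in 5.41%, against 12.9% of all pairs with introns below. At least 1 cell lay above in both layers for 525 of the 1342 members and below in both for 560. Each member had 38 cells in which this could happen, and the counts were not set against all genes or against independent layers.

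The spread of members was larger in cells than in aliquots in both layers. The SD of log2 CPM had a median over members of 0.45 in cells and 0.39 in aliquots for exons, and of 0.55 and 0.49 for introns. It was larger in cells for 874 members (65.1%) in exons and for 853 (63.6%) in introns. Covariance, the product of the deviations of both layers averaged over libraries, had a median of 0.05 in cells and 0.02 in aliquots and was larger in cells for 850 members (63.3%). Over all 5800 genes it was larger in cells for 57.7%. With 1 factor for both layers it was larger in cells for 428 members only.

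No member passed the test of this difference. The covariances were compared between 38 cells and 10 aliquots with limma on the products of deviations, two-sided, and adjusted by Benjamini-Hochberg over 5800 genes. At an adjusted p under 0.05, 0 members had a larger covariance in cells and 0 in aliquots, where the background over all genes was 0% and 0%. The lowest adjusted p was 0.548. At an unadjusted p under 0.05, 34 members (2.53%) were larger in cells, against 2.81% of all genes, and 32 (2.38%) were larger in aliquots, against 3.33%. These counts were 5 and 61 with 1 factor for both layers. Both shares were below those of all genes, and the values of single genes below are descriptions.

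Genes of G1/S and S phase were the list with the highest median r in cells. Of 39 listed genes, 13 were members, and their median r was 0.42 in cells and -0.081 in aliquots. All 13 had r above 0 in cells, 12 had r above the median of members and 6 had r of at least 0.5. At an adjusted p under 0.05, 0 of 13 had a different covariance. With 1 factor for both layers the median was 0.25, and 10 of 13 stayed above 0.

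HELLS, a chromatin remodelling helicase of the SNF2 family, had r of 0.73 in cells and 0.08 in aliquots. Exonic CPM lay from 110 over a median of 253 to 502 in cells and from 151 over 215 to 274 in aliquots. Intronic CPM lay from 56.4 over 141 to 337 in cells and from 67.9 over 149 to 187 in aliquots. The groups overlapped, with cells 3, 4, 6, 15, 18 and 19 above all aliquots in both layers and cells 9, 29 and 34 below. HELLS overlaps TBC1D12 in the annotation, and the sources used here do not say whether counting used strand.

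BRIP1, a helicase of DNA repair that binds BRCA1, had r of 0.70 in cells and -0.20 in aliquots. In exons, CPM ran from 24.9 over 97.5 to 206 in cells and from 92.7 over 125 to 208 in aliquots. In introns, CPM ran from 105 over 265 to 917 in cells and from 222 over 353 to 542 in aliquots. No cell lay above the aliquots in both layers, and 9 cells (2, 8, 9, 15, 16, 23, 28, 29 and 36) lay below in both. The covariance was 0.32 in cells and -0.034 in aliquots, a difference of 0.35 ± 0.14 (SE, adjusted p = 0.737 by limma).

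Other S-phase members ranged lower. DTL, a substrate receptor of a ubiquitin ligase of replication, had 55.7 to 528 exonic CPM in cells and 88.7 to 243 in aliquots. Its introns had 65.8 to 675 CPM in cells and 153 to 484 in aliquots. Cells 18, 36 and 37 were above the aliquots in both layers and cells 8, 14, 16 and 29 below, and r was 0.61 in cells and -0.081 in aliquots. CHAF1A, a subunit of a histone chaperone of replication, had r of 0.59 in cells, and POLD3, a subunit of DNA polymerase delta, had 0.53. The licensing factor MCM3 had r of 0.38 in cells and -0.17 in aliquots, and RFC3 had 0.31 and 0.62. ATAD2 had the lowest r in cells, 0.18, and 0.18 in aliquots. Outside the list, EXO1, a DNA exonuclease, had r of 0.69 in cells and 0.54 in aliquots, and BLM, the helicase of Bloom syndrome, had 0.72 and 0.82. In cells r was 0.46 for HELLS, 0.58 for BRIP1, 0.50 for EXO1 and 0.35 for BLM when both layers shared 1 factor. EXO1 and BLM were named after their values were seen.

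Members among genes of G2 and mitosis had a lower median than S-phase members. Over all listed genes with a mean of at least 5 barcodes in each layer, the lists were close. The medians in cells were then 0.33 for 45 mitotic and 0.35 for 31 S-phase genes, and in aliquots 0.11 and 0.097. Of 63 listed genes, 11 were members, with a median r of 0.25 in cells and -0.045 in aliquots. All 11 were above 0 in cells and 9 above the median of members, and 0 had a different covariance at an adjusted p under 0.05. With 1 factor for both layers the median was 0.095, and 7 of 11 stayed above 0.

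KIF18B, a kinesin of spindle microtubules, had r of 0.76 in cells and 0.30 in aliquots. CPM in its exons ran from 25.02 over 233 to 478 in cells and from 147 over 221 to 337 in aliquots. CPM in its introns ran from 0 over 92.4 to 244 in cells and from 53.7 over 87.6 to 167 in aliquots. Cell 15, with 3 exonic and 0 intronic barcodes, gave 59.7% of its covariance, and without the leading library r was 0.56. Cells 20 and 30 lay above the aliquots in both layers and cells 15, 22, 32 and 38 below.

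ASPM, a protein of the spindle poles, had r of 0.59 in cells and -0.44 in aliquots. The exons ran, in CPM, from 104 over 265 to 766 in cells and from 278 over 400 to 516 in aliquots. The introns ran, in CPM, from 11.3 over 72.5 to 237 in cells and from 28.5 over 76.8 to 113 in aliquots. The exons of 20 cells lay below all aliquots, cells 15, 32 and 33 were below in both layers, and cells 1 and 29 were above in both. CENPE, a kinetochore kinesin, had r of 0.49 in cells and 0.50 in aliquots, while the spindle kinesin KIF11 had 0.16 and -0.38.

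Scores of both lists were also compared between exons and introns. For each library, the log2 CPM of each member was turned into a z-score within its layer and group, and a list's score is the average of these. The exon and intron scores of S-phase members had r of 0.77 in cells (Spearman rho 0.75) and 0.07 in aliquots, and r of 0.72 in cells without cells 16 and 18, which lay farthest from the median exon score. The scores of mitotic members had r of 0.55 in cells (rho 0.38) and -0.13 in aliquots, and 0.36 without cells 15 and 32, so that this value rested largely on those cells. Some other lists had a higher score r in aliquots than in cells. It was -0.038 in cells and 0.60 in aliquots for glycolytic genes, and 0.19 and 0.56 for snoRNA host genes. For mitochondrial enzymes it was 0.15 and 0.42, for chromatin regulators 0.41 and 0.47, and for splicing regulators 7.6e-05 and 0.08. In the remaining lists it was higher in cells. The S-phase exon score fell as the mitotic exon score rose, with r of -0.49 in cells, and the intron scores had r of -0.42. In aliquots these were -0.045 and 0.23. Opposition across layers was not limited to cells: the S-phase intron score had r of -0.49 with the mitotic exon score in cells and -0.58 in aliquots.

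Single cells show the order of these scores. Cell 18 had the highest S-phase exon score, 1.40, with an intron score of 1.15. Cell 16 had the lowest, -1.36, with -0.83 in introns, and its mitotic scores were 0.23 in exons and 0.95 in introns. Cell 29 had the highest mitotic exon score, 1.01, and an S-phase exon score of -1.19. In cells the S-phase exon score had r of -0.28 with the number of intronic barcodes and the mitotic exon score r of 0.36 with the number of exonic barcodes, and the part of depth in the scores was not tested.

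**Figure D2:**
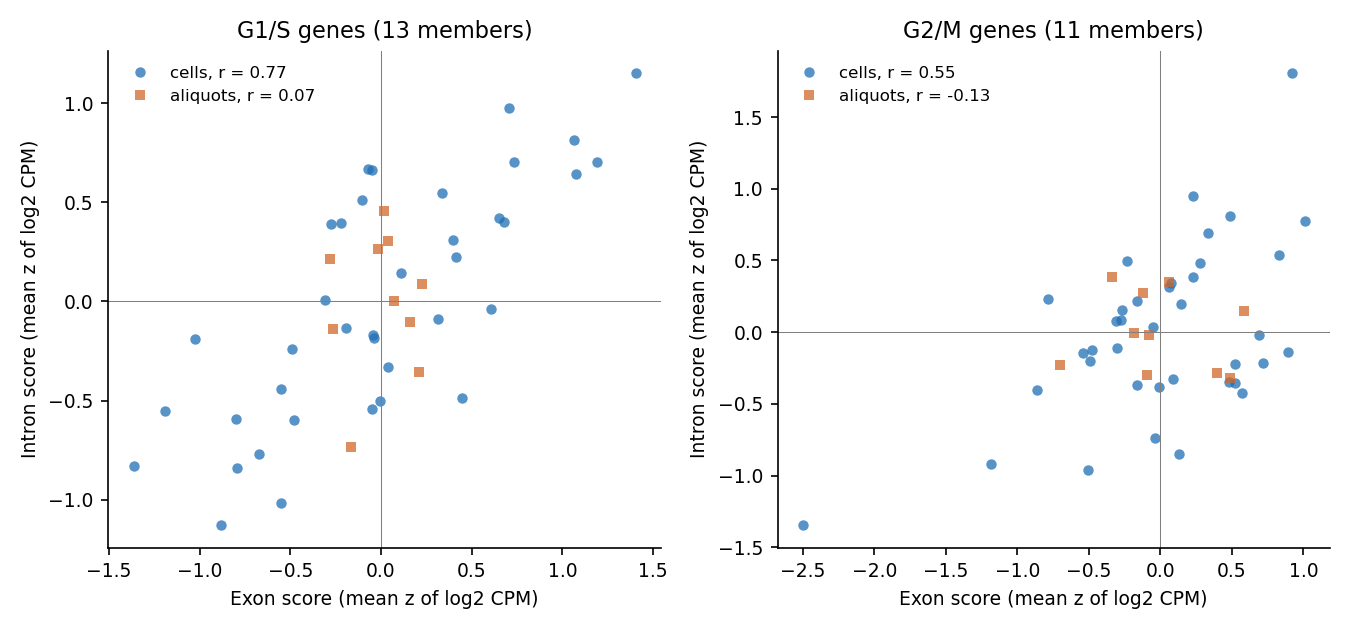
Exon score against intron score (mean z-score of log2 CPM, no unit) of 13 S-phase members (left) and 11 mitotic members (right), for 38 cells (circles) and 10 aliquots (squares), each group scaled to itself. Cells spread along the diagonal on the left, r of 0.77, and less so on the right, r of 0.55, while the aliquots did not, r of 0.07 and -0.13.

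MID1, an X-linked ubiquitin ligase that binds microtubules, had the highest r of all members in cells, 0.76, and r of 0.51 in aliquots. Its exonic CPM ran from 5.55 over 107 to 648 in cells and from 126 over 216 to 271 in aliquots. Its intronic CPM ran from 23.9 over 191 to 1153 in cells and from 230 over 437 to 475 in aliquots. Cells 3, 4, 26, 30 and 32 lay apart above all other libraries, with exons at 426 to 648 and introns at 745 to 1153, and 17 cells lay below all aliquots in both layers. The next highest cell had 228 exonic CPM and another 392 intronic CPM. Cell 17 had 1 exonic and 6 intronic barcodes. The covariance was 1.16 in cells and 0.07 in aliquots, with an unadjusted p of 0.153.

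SLIT2, a secreted guidance protein that binds ROBO receptors, had more intronic barcodes than any other member, 555 per cell on average against 132 exonic ones. Its r was 0.63 in cells and 0.38 in aliquots. Exonic CPM ran from 235 over 497 to 1121 in cells and from 364 over 478 to 617 in aliquots. Intronic CPM ran from 759 over 1758 to 8929 in cells and from 1417 over 1823 to 2328 in aliquots. The highest value was that of cell 18, a library of few intronic barcodes, from 886 barcodes of SLIT2. Cell 21 had more of them, 1407, at 3163 CPM. In both layers 9 cells lay above the aliquots and 6 below. Without its leading cell r was 0.62. SLIT2 overlaps SLIT2-IT1 in the annotation, so its counts may hold reads of that gene.

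SPEN, a large RNA-binding repressor, and CBS, the enzyme that makes cystathionine from homocysteine, had high r in cells over a smaller range. SPEN had exonic CPM from 989 over 1624 to 2458 in cells and from 1319 over 1645 to 1989 in aliquots. Intronic CPM lay from 189 over 481 to 841 in cells and from 375 over 470 to 588 in aliquots. For SPEN r was 0.71 in cells and -0.53 in aliquots, with 3 cells above the aliquots in both layers and 8 below. CBS had r of 0.73 in cells and 0.35 in aliquots, with 5 cells below in both layers and 0 above. The r in cells fell to 0.30 for SPEN and 0.37 for CBS with 1 factor for both layers. Both genes were named after their values were seen, and SPEN overlaps FLJ37453 and AL034555.1 in the annotation.

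**Figure D3:**
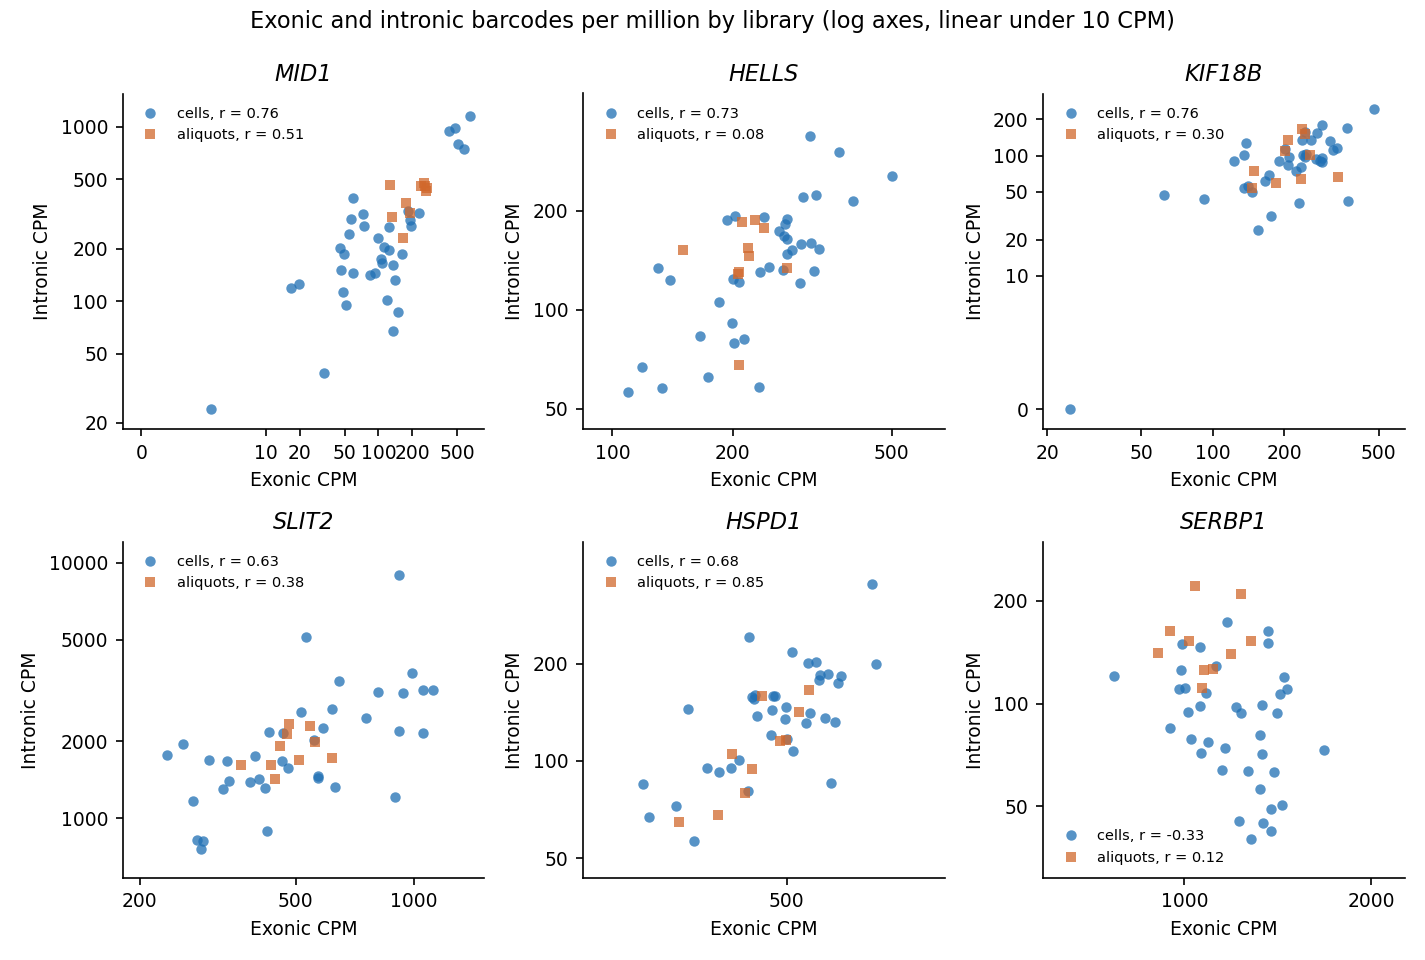
Exonic CPM (x axis) against intronic CPM (y axis) of 6 genes in 38 cells (circles) and 10 aliquots (squares), on log axes that are linear under 10 CPM. MID1 shows 5 cells apart at the top, KIF18B 1 cell at 0 in introns, HSPD1 a rise of introns with exons in both groups, and SERBP1 exons and introns in opposite directions in cells (r of -0.33) but not in aliquots (0.12).

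AMOT, a scaffold protein of the Hippo pathway on the X chromosome, had the largest ratio of exonic SD in cells to that in aliquots of the members, 7.88. Exonic CPM lay from 216 over 1146 to 2077 in cells and from 1166 over 1321 to 1427 in aliquots. In introns, CPM ran from 75.1 over 345 to 1617 in cells and from 231 over 391 to 542 in aliquots. Exons lay above all aliquots in 12 cells and below them in 20, and in both layers 5 cells lay above and 11 below. Its r was 0.40 in cells, or 0.21 with 1 factor for both layers, and -0.40 in aliquots. Cell 16 had the most exonic CPM with introns at 383, inside the range of the aliquots.

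Large spread did not come with a high r in every gene. After AMOT, the exonic SD ratios were highest for RAB1A (3.85), a GTPase of transport from the endoplasmic reticulum, USP47 (3.73), a deubiquitinase, MID1 (3.20) and XIST (3.19), the RNA of X inactivation. Their r in cells were -0.061, 0.05, 0.76 and 0.33. The intronic SD ratios were highest for DYNC2H1 (3.37), a motor of cilia, MID1 (3.32), BCORL1 (3.31), a corepressor, TLE4 (3.14), a Groucho corepressor, and EIF2B3 (3.10), a subunit of the exchange factor of eIF2. TLE4 had r of 0.62 in cells and 0.06 in aliquots, and the other 3 besides MID1 had r of 0.30 to 0.33 in cells. These ratios rest on 10 aliquots, and genes with a small spread there were picked by them.

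Some genes were coupled as closely in aliquots as in cells. HSPD1, the mitochondrial chaperonin, had r of 0.68 in cells and 0.85 in aliquots. In exons, CPM ran from 267 over 486 to 738 in cells and from 312 over 440 to 551 in aliquots. CPM in its introns ran from 56.4 over 142 to 353 in cells and from 64.5 over 110 to 166 in aliquots. The highest was that of cell 18, from 35 intronic barcodes. In both layers 8 cells were above the aliquots and 0 below. HSPD1 overlaps HSPE1 and MOB4 in the annotation, so its counts may hold reads of these genes.

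Members among splicing regulators and chaperones had low r. Of 26 members among hnRNP and SR regulators, 20 were above 0 in cells, 8 above the median of members and 0 at 0.5 or more, with a median of 0.12 in cells and 0.03 in aliquots. SRSF11 had the highest, 0.43, and ELAVL1 and HNRNPC, which bind U-rich and poly-U RNA, had -0.14 each. Chaperone members had the lowest median in cells of the 15 lists, 0.03, and -0.056 in aliquots over 10 members. Of these, HSPD1, the cochaperone DNAJB6 (0.61) and calnexin, CANX (0.48), were high. Over the 34 chaperones and 47 splicing regulators with a mean of at least 5 barcodes in each layer, both medians in cells were 0.16. All such genes had 0.19, and mitochondrial enzymes then had the lowest list median, 0.092. Neither splicing regulators nor chaperones had a member of different covariance at an adjusted p under 0.05.

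HSP90AA1, the inducible cytosolic HSP90, had 0.05 intronic barcodes per exonic one, among the 3 lowest ratios with SRRM2 (0.05) and FASN (0.08). Its r was -0.12 in cells and -0.28 in aliquots. CPM in its exons ran from 1315 over 1718 to 2536 in cells and from 1684 over 1946 to 2135 in aliquots. The introns ran, in CPM, from 20.97 over 77.8 to 175 in cells and from 8.71 over 75.5 to 113 in aliquots. The groups overlapped in both layers, and in 5 cells the layers left the range of the aliquots in opposite directions.

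SERBP1, an mRNA-binding protein found on idle ribosomes, was among the members of lowest r and was named after its values were seen. The exons ran, in CPM, from 770 over 1229 to 1678 in cells and from 906 over 1072 to 1281 in aliquots. Its intronic CPM ran from 40.2 over 93.8 to 174 in cells and from 111 over 147 to 221 in aliquots. In 16 cells exons lay above all aliquots, in 28 cells introns lay below, and in 13 cells the layers left the range in opposite directions. Its r was -0.33 in cells and 0.12 in aliquots. The lowest values were -0.42 for ADGRL2, an adhesion receptor, and -0.45 for NUDCD3.

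Cholesterol and fatty acid genes had 8 members, with a median r of 0.35 in cells and 0.22 in aliquots. Of these, 8 were above 0 in cells and 7 in aliquots, and 7 were above the median of members in cells. LSS, lanosterol synthase, had r of 0.58 in cells and 0.41 in aliquots, and FASN, fatty acid synthase, 0.51 and 0.40. For FASN r in cells was 0.13 with 1 factor for both layers. SCD, the stearoyl-CoA desaturase, had 0.45 in cells and 0.34 in aliquots, and SREBF2, the transcription factor of the pathway, 0.36 and 0.41. The exon and intron scores of the list had r of 0.61 in cells and 0.04 in aliquots. At an adjusted p under 0.05, 0 of 8 had a different covariance, and with 1 factor for both layers the median was 0.096 and 6 of 8 were above 0.

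Chromatin regulators were the longest list, with 55 members and a median r of 0.24 in cells and 0.12 in aliquots. Of these, 51 were above 0 in cells and 31 above the median of members. CHD1, a remodeller bound to active genes, had r of 0.70 in cells (0.36 with 1 factor for both layers) and 0.05 in aliquots, the demethylase KDM5B had 0.54 and ATRX had -0.13. Adhesion and guidance genes had a median of 0.26 in cells and 0.24 in aliquots over 17 members, with 17 above 0 in cells and 14 in aliquots. SLIT2 (0.63) and the receptor EPHA7 (0.55) had the highest r in cells, with 0.38 and 0.47 in aliquots. Their medians in cells under 1 factor for both layers were -0.087 for chromatin regulators and -0.074 for adhesion genes. In neither list did a member pass at an adjusted p under 0.05.

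The other lists had medians in cells at or below that of all members. Medians were 0.21 in cells and 0.27 in aliquots for 9 genes of the ATF4 and amino acid response, 0.19 and 0.25 for 12 snoRNA host genes, and 0.17 and 0.44 for 6 mitochondrial enzymes. For 10 spliceosome genes they were 0.15 and 0.16, so in these lists the median was higher in aliquots. The medians were 0.18 in cells and 0.0088 in aliquots for 7 glycolytic genes, 0.17 and 0.095 for 3 immediate response genes, 0.16 and 0.11 for 9 translation genes, and 0.14 and 0.12 for 8 DEAD and DEAH box helicases. In these lists SLC38A1 (0.52), an amino acid carrier, and SNHG17 (0.55), a snoRNA host, led in cells. SLC16A1 (0.53), the lactate carrier MCT1, and EEF1D (0.64), a translation elongation subunit, led there as well. In aliquots r was 0.13 for SLC38A1, 0.36 for SNHG17, 0.84 for SLC16A1 and 0.73 for EEF1D. With 1 factor for both layers the medians of 11 of the 15 lists were below 0, all but S-phase, mitotic, cholesterol and immediate response genes. No member of these lists passed at an adjusted p under 0.05.

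**Figure D4:**
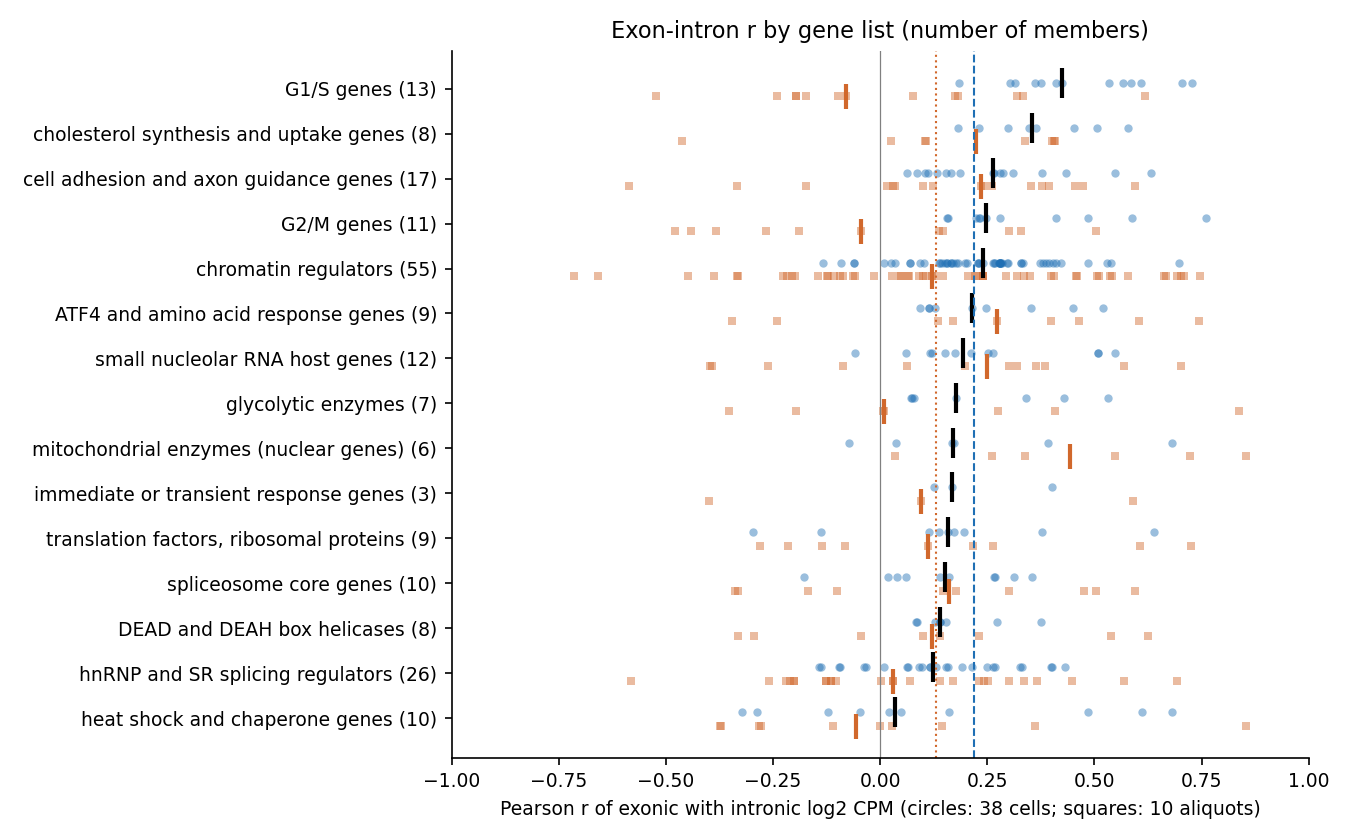
Pearson r of exonic with intronic log2 CPM (x axis) of the members in 15 gene lists (y axis, number of members in brackets), in 38 cells (circles) and 10 aliquots (squares). Vertical ticks are medians, and the dashed and dotted lines are the medians of all 1342 members in cells (0.22) and aliquots (0.13). S-phase genes lie farthest right in cells.

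All 12 members with the largest test statistic for larger covariance in cells had a negative covariance in aliquots. TMEM184B had a covariance of 0.09 in cells and -0.18 in aliquots, a difference of 0.27 ± 0.075 (SE, adjusted p = 0.548 by limma). ATP2B4, a calcium pump of the plasma membrane, had 0.13 and -0.73. The kinase MTOR had 0.03 and -0.095, the kinase JAK1 -0.011 and -0.24, and the remodeller EP400 0.04 and -0.13. Only BRIP1 and PIEZO1 of these 12 had r of at least 0.5 in cells. PIEZO1, a mechanically gated channel, had r of 0.69 in cells and -0.047 in aliquots and overlaps CTU2. The others (ATXN7, MSL2, HBS1L, PHF20 and ZFHX4) had r of 0.10 to 0.39 in cells and below 0 in aliquots.

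The strongest statistics the other way were those of INTS3, DCAF1, UBE2R2 and MMS19, a choice that favours a high covariance in aliquots. INTS3, a subunit of Integrator, had a covariance of 0.04 in cells and 0.32 in aliquots, a difference of -0.28 ± 0.086 (SE, adjusted p = 0.548 by limma). DCAF1, a substrate receptor of CUL4, had -0.0095 and 0.16, the ubiquitin-conjugating enzyme UBE2R2 -0.053 and 0.20, and MMS19, of iron-sulfur cluster assembly, -0.034 and 0.18. INTS3 and DCAF1 overlap other coding genes, SLC27A3 and RBM15B.

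The share of introns differed widely between members, and r differed little with it. Intronic per exonic barcodes ran from 0.05 to 13.7 with a median of 1.03. MECOM (13.7), a zinc finger factor, AUTS2 (12.6) and FTX (10.6), a noncoding gene of the X inactivation centre, had the highest ratios, with r in cells of 0.23, 0.44 and 0.40. The median r in cells was 0.23 over members with more intronic than exonic barcodes and 0.20 over the others. It was 0.20 for 436 members whose smaller mean was 20 to 25 barcodes, 0.22 for 606 members at 25 to 40, 0.23 for 272 at 40 to 80 and 0.27 for 28 with 80 or more. In those 28 the median in aliquots was -0.061.

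Median r differed little with overlap and more between chromosomes. Members overlapping another gene in the annotation (941) had a median r of 0.23 in cells and those overlapping none (390) had 0.21. By chromosome the medians in cells ran from 0.13 on chromosome 14 (41 members) to 0.32 on the X chromosome (36 members) and 0.31 on chromosome 13 (21 members). In aliquots the medians of chromosomes 14, X and 13 were 0.18, 0.22 and 0.10. The values just inside the rule were 20 exonic barcodes for ATAD3B (r of 0.46 in cells) and 20 intronic barcodes for MARS (0.45). Just outside stood RNF34 (0.34) and GRB10 (0.53), each with a mean of 19.97 exonic barcodes.

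Libraries differed in how far exons and introns moved together. Within a library, the deviations of exons and introns from the group means had r across the 1342 members of 0.228 ± 0.0935 in cells (SD, n = 38) and 0.124 ± 0.0358 in aliquots (SD, n = 10). The lowest were cells 22 (-0.0027), 38 (0.024), 36 (0.059) and 31 (0.060), and the highest were cells 32 (0.39) and 30 (0.42). Genes within a library are not independent replicates, so no test is given. In cells this r had r of 0.62 with the number of intronic barcodes, and cells 9, 18, 36 and 38, with the fewest, lay between 0.024 and 0.12. Without these 4 cells the median r of members over cells was 0.24.

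**Figure D5:**
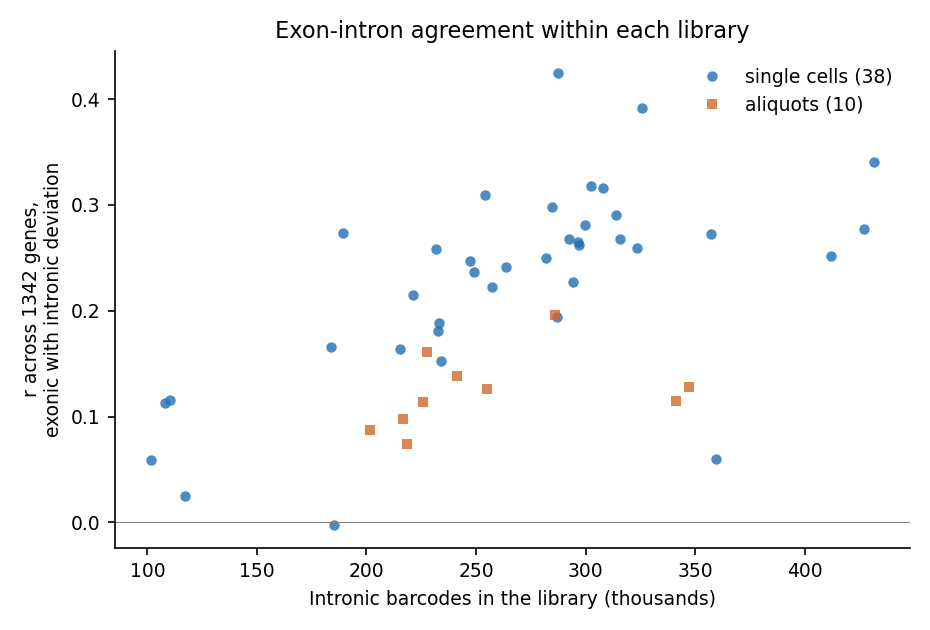
Correlation across 1342 genes of exonic with intronic deviations from the group mean (y axis, no unit) against intronic barcodes per library (x axis), for 38 cells (circles) and 10 aliquots (squares). Above all aliquots lie 26 cells and below them 4, and the 4 cells of fewest intronic barcodes lie at 0.12 or below.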

How the data were processed

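The authors deposited, for each library, raw counts of reads and of random barcodes per Ensembl gene, in exons and in introns (4 columns of whole-number counts, not normalized). TopHat, HTSeq and hg19 are named in the submitters' processing notes, while versions, annotation and strand are not given. Barcode counts were the main measure, and groups came from the labels. Nothing says that libraries came from separate cultures, so p-values measure the spread between these libraries. No library was a duplicate: comparing any 2 cells gave a chi-square of 2.16 or more per degree of freedom, and any 2 aliquots 2.09 or more.

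Levels were log2 CPM (edgeR 4.0.16, prior count 1) with a TMM factor per layer. Genes with a mean of at least 5 barcodes in each layer over 48 libraries (5800) were tested. Products of exonic and intronic deviations from the group mean, scaled by n/(n - 1), were compared between cells and aliquots by limma 3.58.1 (R 4.3.3, robust and trended, two-sided, Benjamini-Hochberg). Tested on simulated data, the fit recovered the shared variation in the median but called no gene after adjustment, so a count of 0 says little. Correlations are descriptions. Symbols and overlaps came from GENCODE release 29, on another build (52338 identifiers matched).

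Members and the 15 lists were chosen with earlier results of these data known. Named genes were the 12 largest and 4 most negative statistics, the 5 largest SD ratios per layer, the 3 highest and 3 lowest intron-to-exon ratios, 2 members per list by r, and genes at the edge of the rule. Those named for the 20 highest or 5 lowest r, and other list members given as examples, were chosen after their values were seen. Alternatives were reads, DESeq2 1.42.0 size factors, library totals, 1 factor for both layers, other filters, member minimums and prior counts, ranks, thinning to equal depth, removal of a trend, of leading libraries or of shallow cells, and a replicate block.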

Additional observations from a re-analysis of the deposited data

Results flagged for a closer look

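Of 51 sets of 10 aliquot values looked at (exonic and intronic CPM of 20 genes, and properties of the libraries), 2 held an aliquot far from the others by Dixon's criterion, and chance gives about 1 in 20. Aliquot 1 had 67.9 intronic CPM of HELLS, and the nearest other aliquot had 129. Aliquot 3 had 1684 exonic CPM of HSP90AA1, and the nearest other had 1903. Both values stand in the ranges of the aliquots given for these genes.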

How the results depend on the processing

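The count of members called stayed at 0 in both directions under all 16 alternatives, and only the filter at a mean of 1 barcode called any gene, 1 of 9914, which was no member. The 16 genes named for the largest or most negative statistics kept their direction under the alternatives run for them (224 of 224 values), with adjusted p of 0.224 or more by limma. These alternatives reuse the libraries in which the genes were picked, so the kept direction is no independent support. The median r of members in cells reversed to -0.083 with 1 factor for both layers (the cause was not tested), fell to 0.173 after thinning and 0.169 without the leading library of each gene, and was 0.242 without the 4 cells of fewest intronic barcodes, an alternative chosen after seeing the data. In aliquots it was 0.115 on ranks, 0.107 after thinning, 0.0681 without the leading library, 0.146 for the 300 members of a rule at 40 barcodes. Other alternatives moved it by less than its jackknife SE (0.0215 in cells, 0.0134 in aliquots). Leaving out 1 library gave 0.212 to 0.227 in cells and 0.127 to 0.141 in aliquots. At an unadjusted p under 0.05, 5 members were larger in cells and 61 in aliquots with 1 factor for both layers, and 64 and 17 on ranks, against 34 and 32. Of 696 r values of 58 named genes, 122 moved by more than their jackknife SE, 44 of them with 1 factor for both layers. The replicate numbers do not pair the libraries: cells and aliquots of the same number had r of -0.096 to 0.062 over members, and 2 of 10 cells correlated best with their own number. With cells 1 to 10 and the replicate block, 0 members were called, the median r was 0.239 in cells and 0.130 in aliquots, and 67 members were larger in cells and 27 in aliquots at an unadjusted p under 0.05. Members have as few as 20 barcodes per layer on average, which limits the precision of each r.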
